A study of Homo sapiens with 6 samples.

Results

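The genes described here handle zinc, iron and magnesium in PC9ER, a cultured human lung tumour line (non-small cell type) that the series title calls driven by EGFR, a growth factor receptor, and resistant to gefitinib, a drug that blocks EGFR. They were chosen by symbol: all rows of the deposited table of coding genes named SLC30A, SLC39A or SLC41A, MT1 plus a letter, or MT2A, MTF1, SLC11A2, SLC40A1, FTH1, FTL, TFRC, ACO1 or IREB2. This gave 35 of 15376 rows: 7 zinc exporters of the SLC30A (ZnT) family, 14 zinc importers of the SLC39A (ZIP) family, 3 metallothioneins, the zinc-sensing factor gene MTF1, 3 magnesium transporters of the SLC41A family and 7 iron genes. RNA sequencing gave their messenger RNA in 6 libraries, 3 from control cells labelled DMSO, the solvent vehicle, and 3 from cells labelled with gefitinib at 1 µM. The protocol, shared by all samples, has 72 h of the Notch inhibitor DBZ or DMSO, overnight serum withdrawal and gefitinib for the last 6 h. It does not state how control cells were handled during the last 6 h or whether they were kept without serum, so gefitinib and a difference in handling cannot be told apart. The series also names DBZ alone and with gefitinib, which are not analysed here. Nothing says that the 3 libraries of a group are from separate cultures, and p-values then measure only their spread, which may be technical.

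Zinc enters the cytosol through ZIP proteins and leaves it, into organelles or out of the cell, through ZnT proteins. Metallothioneins are small cysteine-rich proteins that buffer zinc and copper, and the transcription factor MTF1 switches their genes and SLC30A1 on when zinc rises. Iron reaches most cells bound to transferrin, which the transferrin receptor (TFRC) carries into endosomes. SLC11A2 (DMT1) moves the iron into the cytosol, the ferritin subunits FTH1 and FTL store it, and ferroportin (SLC40A1) exports it. The regulatory proteins IRP1 (encoded by ACO1) and IRP2 (IREB2) bind hairpins called iron-responsive elements in messenger RNAs of this system. Such a hairpin in the 5′ untranslated region blocks translation when iron is scarce, and in the 3′ untranslated region it shields the messenger from decay.

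Because this hairpin joins the iron genes to each other, the annotated transcripts of GENCODE release 29 (GRCh38) were searched for it by its letters and its stem. The search asked for a C, 5 stem bases, the 6-base loop CAGTGN with a last base other than G, and 5 bases that pair with the stem, with G-T pairs allowed, on the transcript's strand. In 15280 coding genes searched, 0.916% held a match in an untranslated region, 24 of them in the 5′ and 116 in the 3′ region. Hairpins with an unpaired or extra base in this stem were not searched for, so a gene without a match may still hold one. Among the 35 metal genes 5 held a match. They are printed below with 6 bases either side of the core and the loop in capitals, since they separate ferritin and ferroportin, with the match near the start of the messenger, from TFRC, with 4 matches in its tail.
FTH1, 5′ region: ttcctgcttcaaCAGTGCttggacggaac
FTL, 5′ region: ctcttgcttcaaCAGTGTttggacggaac
SLC40A1, 5′ region: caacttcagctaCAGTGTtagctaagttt
TFRC, 3′ region: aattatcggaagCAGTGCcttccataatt
TFRC, 3′ region: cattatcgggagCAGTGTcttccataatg
TFRC, 3′ region: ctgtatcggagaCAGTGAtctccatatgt
TFRC, 3′ region: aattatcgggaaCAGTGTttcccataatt
SLC39A9, 3′ region: caatagctggaaCAGTGAttttaaatgtc

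The FTH1 match lies at chr11:61967574-61967602 (minus strand), the FTL match at chr19:48965335-48965363 (plus strand) and the SLC40A1 match at chr2:189580661-189580689 (minus strand), all in GRCh38. The 2 ferritin matches were identical at 26 of 29 bases. The 4 TFRC matches lay on the minus strand within 545 bases of chromosome 3, from 196050463 to 196051007, and are listed in transcript order. SLC39A9, a zinc transporter gene of the Golgi and cell surface, held its match at chr14:69462224-69462252 (plus strand); a match of letters is a description and does not show that a protein binds there.

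Counts of reads per coding gene had been scaled by the authors to a common total, and the resulting values are called normalized reads here. The libraries held from 13674237 to 38581498 reads in coding genes, and 0.576% to 0.602% of the control reads and 0.644% to 0.675% of the gefitinib reads fell in the 35 genes. The genes with the most reads, TFRC and FTL, had means of 34913 and 14409 normalized reads in control and 41872 and 18819 with gefitinib. The shares therefore weigh these genes most and do not describe a typical gene of the set. Control replicate 1 stood apart from control replicates 2 and 3 on principal component 2, at 38.1 against -12.6 and -28.8, and read lower in GC-rich genes. Gefitinib replicate 1 lay apart from gefitinib replicates 2 and 3 in the same direction, at 23.3 against -8.86 and -11.1. Of 9 epithelial marker genes with a row, 1 rose and 6 fell, and their sum was 109601 to 150918 in control and 83290 to 86727 in gefitinib libraries. EPCAM and CDH1, named because they define epithelium, had control means of 9764 and 12180 normalized reads, whereas the lung markers SFTPB and NAPSA were low, at 7.82 and 21.2. The summed level of 6 blood markers lay between 17.8 and 36.1 in every library, and that of 4 fibroblast markers between 32.4 and 71.4. The 3 endothelial markers with a row summed to between 1180 and 1360 in control and between 147 and 176 in gefitinib libraries, mostly PECAM1 (means 1216 and 122), while CDH5 and VWF had means of at most 50.5 and 8.64. The part of these marker shifts in the results below was not tested.

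Each difference below is the gefitinib level less the control level as log2(value + 1), a scale that understates changes of low genes, and comes with its standard error and a limma p-value adjusted over the 15229 genes tested. Of the 35 genes, 11 rose, 7 fell and 17 did not pass a limma adjusted p of 0.05. Over all genes 28.3% were called higher, 22.8% lower and 51.1% in either direction, against 51.4% of these genes, so the share called was near the background. Among genes with a mean of 10 or more the shares were 62.1% of 29 members and 59.7% of all genes. Both called and at least 2-fold different by the fitted value were 5 members, SLC30A4, SLC30A5, SLC40A1, SLC39A10 and SLC11A2, against 22.3% of all genes. The median difference was 0.05 for the 35 genes and 0.10 for all genes, and the median size without regard to sign was 0.432 and 0.531. The control and gefitinib values did not overlap for 18 of the 35 genes, against 58.0% of all genes, with 11 of them higher and 7 lower against 32.3% and 25.7%. Without control replicate 1, limma called 12 members higher and 11 lower, against 30.2% and 26.4% of all genes (56.6% in either direction). With edgeR 10 of 29 members tested were higher and 8 lower, against 30.5% and 30.8% (61.3%), and with the GC trend between libraries removed 10 were higher and 9 lower, against 30.8% and 28.9% (59.7%). The zinc exporter genes SLC30A4 and SLC30A5, the iron exporter gene SLC40A1 and MTF1 rose, and the importer genes SLC39A10, SLC39A8 and SLC11A2 and the zinc exporter gene SLC30A1 fell. Called genes of both kinds of transporter went both ways: the importer genes SLC39A9 and SLC39A11 and the receptor gene TFRC rose, and the importer gene SLC39A1 fell. In bulk RNA, fewer cells that express a gene and less of its RNA per cell cannot be told apart.

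**Figure D1:**
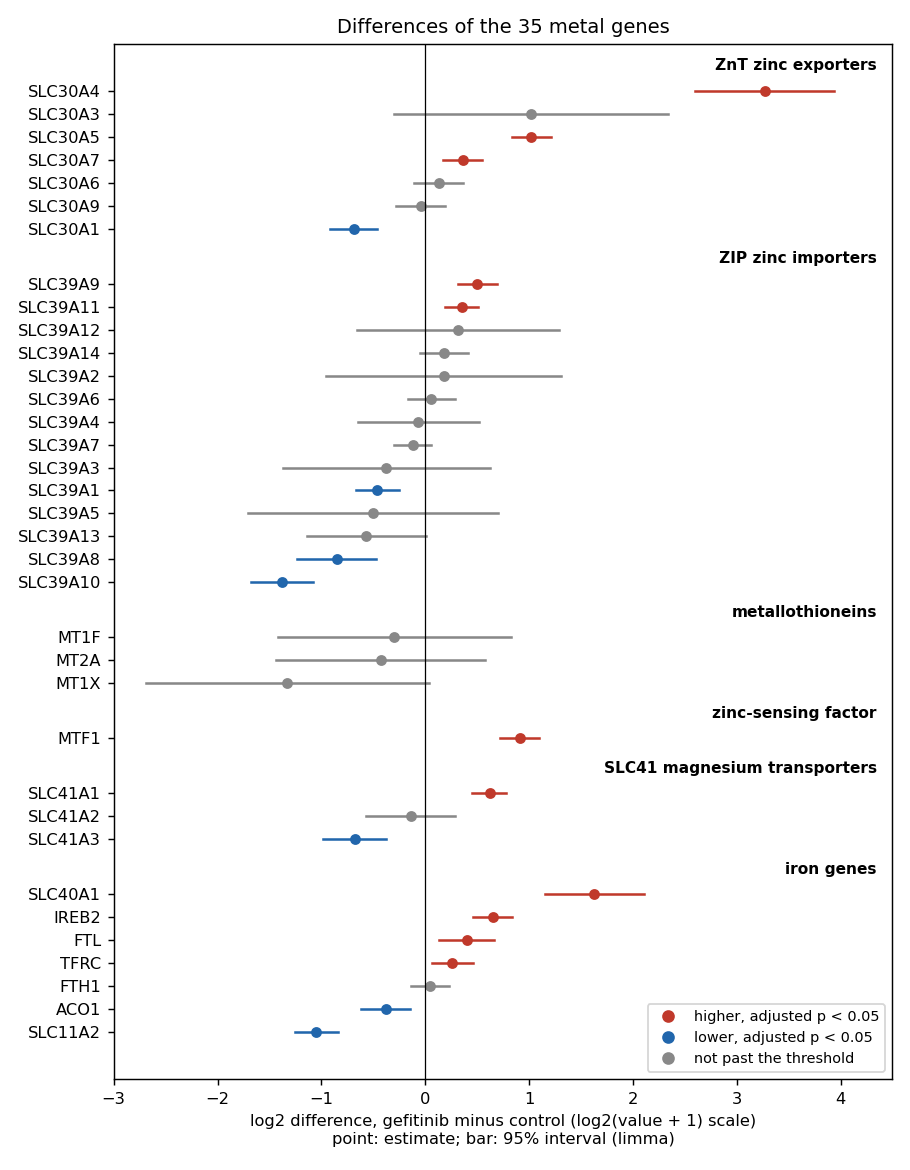
Log2 difference, gefitinib minus control, of each of the 35 genes by family (x axis, log2(value + 1) scale), with the limma estimate as a point and its 95% interval as a bar; red and blue mark genes called higher and lower at an adjusted p under 0.05, grey the others. SLC30A4 at 3.27 and SLC39A10 at -1.38 are the outermost called genes.

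Among the zinc exporters, 3 of 7 rose, 1 fell and 3 did not pass, with a median difference of 0.36. The shares over all genes were 28.3% higher and 22.8% lower. SLC30A4 encodes ZnT4, which loads zinc into endosomal and secretory vesicles (chromosome 15, 45479611 to 45522807, GRCh38). It had 6.35, 4.46 and 6.76 normalized reads in control libraries 1, 2 and 3 and 60.8, 60.5 and 72.7 in gefitinib libraries 1, 2 and 3. All gefitinib values lay far above all control values, although the gene stayed among the lowest of the family. The rise was 11.0-fold by the means, a log2 difference of 3.27 ± 0.30 (standard error; limma adjusted p = 2.39e-05). It rests on 20 control and 268 gefitinib reads. Exons of a pseudogene and an antisense gene on the opposite strand overlap 349 bases of its exons, and the strand setting of the counting is not given, so the level is uncertain.

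SLC30A5 and SLC30A7 encode ZnT5 and ZnT7, which supply zinc to enzymes of the early secretory pathway. SLC30A5 (chromosome 5, 69093646 to 69131069) had 1456, 1372 and 1285 normalized reads in the control and 2637, 2834 and 2895 in the gefitinib libraries. The groups were well separated, and the mean rose 2.03-fold (log2 difference 1.02 ± 0.08, limma adjusted p = 1.33e-05). An antisense gene overlaps 532 of its exon bases. SLC30A7 went from 2444, 2214 and 2099 to 2781, 2998 and 2892. Its groups did not overlap either, but the step was small, at 0.36 ± 0.08 (limma adjusted p = 0.00545). Once the GC trend was taken out it was 0.19 and still passed. SLC30A6, the partner of ZnT5, had control values of 3125, 2573 and 2636 and gefitinib values of 3361, 2923 and 2811. These overlapped, and the difference of 0.13 had a 95% interval from -0.11 to 0.36 (limma adjusted p = 0.341); without control replicate 1 it was 0.21 and passed (adjusted p = 0.0465).

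SLC30A1 encodes ZnT1, the exporter of the plasma membrane and a textbook target of MTF1 (chromosome 1, 211571568 to 211578742). The control libraries had 3464, 2856 and 2739 normalized reads and the gefitinib libraries 1791, 1824 and 1978. Every gefitinib value was below every control value, a difference of -0.69 ± 0.10 (limma adjusted p = 0.000427). The mitochondrial exporter gene SLC30A9 had means of 1363 ± 155 (SD, n = 3) and 1320 ± 81.1, with overlapping groups and a 95% interval from -0.28 to 0.19. SLC30A3, the exporter of synaptic vesicles, was near the detection limit, with 1 read in the 3 control libraries and 9 in the 3 gefitinib libraries. Corrected for depth the ratio was 7.55, with an exact 95% counting interval from 1.05 to 331 (counting error only). It did not pass the limma test (adjusted p = 0.178), and passed without gefitinib replicate 1 (adjusted p = 0.0156).

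**Figure D2:**
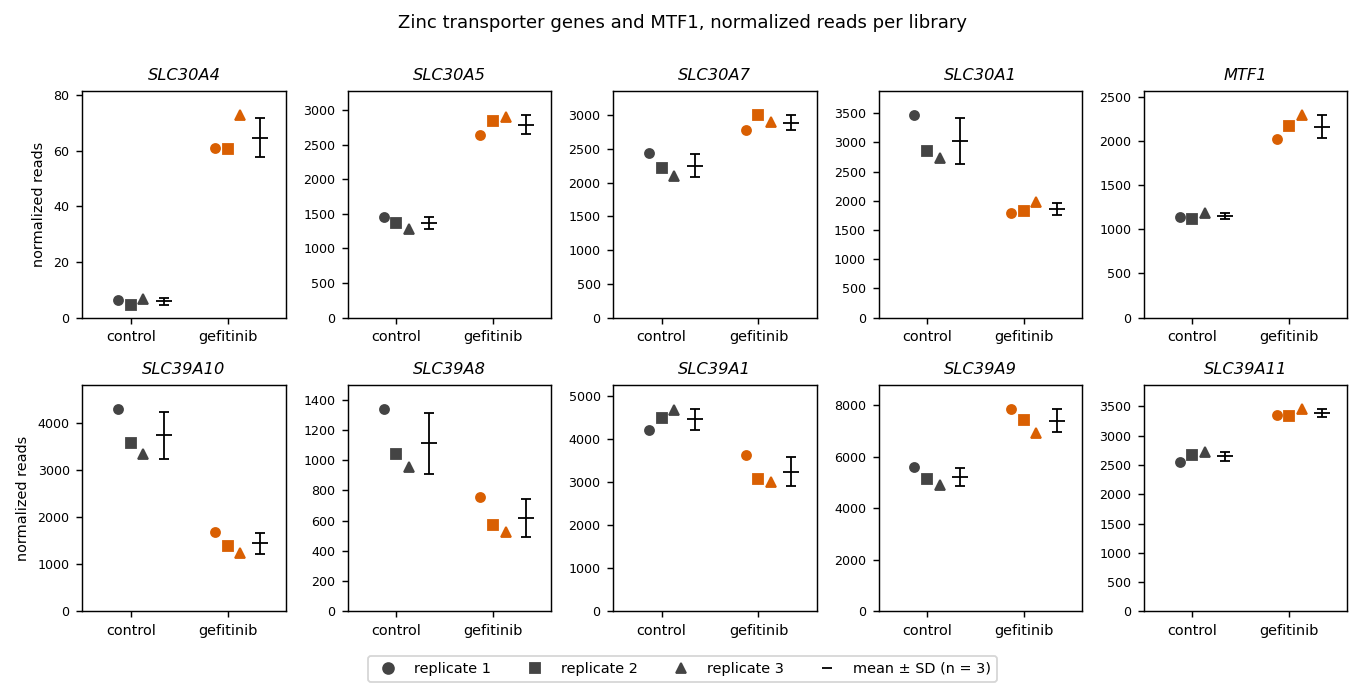
Normalized reads per library (y axis, from 0) of the 9 zinc transporter genes called in the test and of MTF1, for 3 control and 3 gefitinib libraries; symbols mark the replicate number and the bar the mean ± SD. In all 10 genes the 2 groups do not overlap, and SLC30A4 goes from 4.46 to 6.76 up to 60.5 to 72.7.

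Of the 14 zinc importer genes, 2 rose, 3 fell and 9 did not pass, with a median of -0.09, beside 28.3% higher and 22.8% lower over all genes. SLC39A10 encodes ZIP10, an importer of the plasma membrane (chromosome 2, 195575977 to 195737702). Its values were 4293, 3576 and 3338 normalized reads in the control and 1692, 1390 and 1239 in the gefitinib libraries. Every control library was far above every gefitinib library, and the control mean was 2.59-fold that with gefitinib (difference -1.38 ± 0.13, limma adjusted p = 3.33e-05). SLC39A6 encodes ZIP6, the closest relative and partner of ZIP10,. It read 2803, 2387 and 2274 in control and 2850, 2518 and 2411 with gefitinib, which overlap. The difference of 0.06 had a 95% interval from -0.17 to 0.29 (limma adjusted p = 0.647), and that of SLC39A10 one from -1.68 to -1.08; whether the 2 genes differ was not tested.

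SLC39A8 and SLC39A14 encode ZIP8 and ZIP14, a related pair that carries zinc, manganese and iron. SLC39A8 (chromosome 4, 102251041 to 102431258) had 1338, 1040 and 953 normalized reads in control and 758, 568 and 525 with gefitinib. The highest gefitinib library stayed below the lowest control library, a fall by 0.85 ± 0.17 on the log2 scale (limma adjusted p = 0.00230). For SLC39A14 the values were 1826, 1688 and 1687 against 2248, 1924 and 1757. Its groups overlapped, and the 95% interval ran from -0.05 to 0.41 (limma adjusted p = 0.170). SLC39A1 encodes ZIP1, a widely expressed importer, and went from 4205, 4493 and 4686 to 3639, 3085 and 3011. The groups did not overlap and the difference was -0.46 ± 0.09 (limma adjusted p = 0.00250). Exons of another coding gene on the same strand, AL358472.7, cover 2061 of the 3388 exon bases of SLC39A1, so its level depends on how shared reads were counted.

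The importers that rose were SLC39A9 and SLC39A11, which encode ZIP9 and ZIP11. SLC39A9 (chromosome 14, 69398015 to 69462388), the gene with the hairpin match shown above, had 5597, 5132 and 4921 normalized reads in control and 7844, 7417 and 6936 with gefitinib. No gefitinib value fell among the control values, and the difference was 0.50 ± 0.08 (limma adjusted p = 0.000759). Exons of the coding gene ERH on the opposite strand overlap 373 of its exon bases, and the strand setting of the counting is not given. SLC39A11 read 2558, 2667 and 2717 and then 3353, 3334 and 3456. Within each group its libraries lay close together, and the step of 0.35 ± 0.07 passed (limma adjusted p = 0.00252). SLC39A7, which encodes ZIP7 of the endoplasmic reticulum, had the highest level of all ZIP genes per kilobase of exon and means of 6845 ± 360 and 6306 ± 409 normalized reads (SD, n = 3). The groups overlapped, with a 95% interval from -0.30 to 0.06 (limma adjusted p = 0.247).

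In SLC39A13, SLC39A4 and SLC39A3, control replicate 1 lay below both other controls. SLC39A13, whose product ZIP13 lies in the Golgi and vesicles, had 233, 476 and 459 normalized reads in control and 229, 250 and 273 with gefitinib. Control replicate 1 thus fell among the gefitinib libraries, and the difference of -0.57 ± 0.26 did not pass (limma adjusted p = 0.0929). Without that library it was -0.90 (adjusted p = 0.000199), and it passed in 7 of 15 alternatives in all, edgeR (adjusted p = 0.0268) and the GC trend removed (0.00270) among them, over a range from 0.000199 to 0.295. SLC39A4, the intestinal importer gene mutated in acrodermatitis enteropathica, had 145, 272 and 293 against 214, 193 and 243. Control replicate 1 was the lowest of the 6 libraries; the difference was -0.07 (adjusted p = 0.847) with it and -0.39 (0.0483) without it. SLC39A3 had 35.3, 77.0 and 118 against 78.0, 38.0 and 48.8, with no order between the groups (limma adjusted p = 0.509). Over genes with a mean of 10 or more, control replicate 1 was higher than controls 2 and 3 by a median of 0.24 where the transcript had under 40% GC and lower, at -0.73, where it had 60% or more. The median was -0.14 from 50% to under 55% GC and -0.39 from 55% to under 60%. The values for SLC39A13 at 62.8% GC, SLC39A4 at 54.8% and SLC39A3 at 58.0% were -1.0, -0.96 and -1.41. Each lay below the median of its own GC range, and the part of GC content in these results was not tested. SLC39A2, SLC39A5 and SLC39A12 had at most 8 reads in the 3 libraries of a group and showed no detectable difference at this depth.

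**Figure D3:**
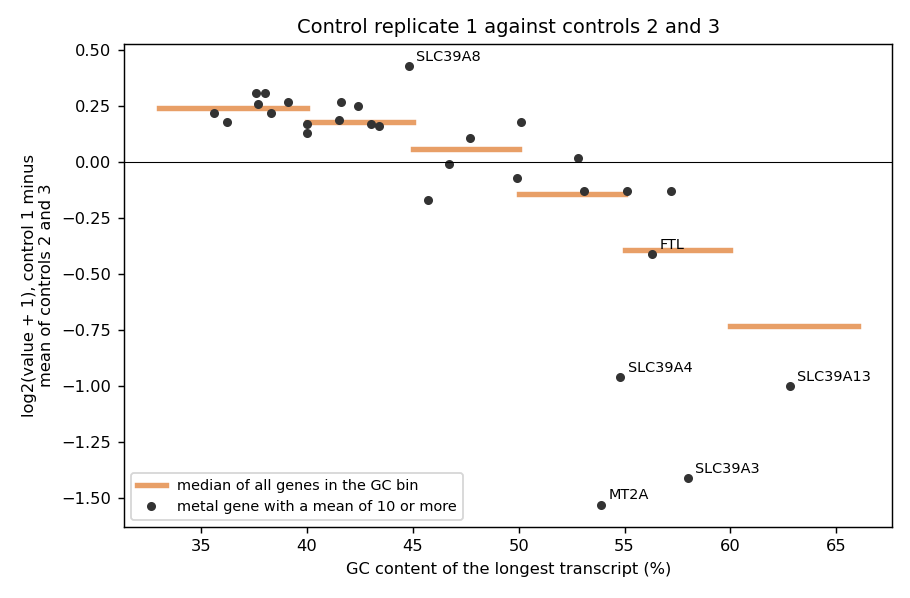
Log2(value + 1) in control replicate 1 minus the mean of control replicates 2 and 3 (y axis) against the GC content of the gene's longest transcript (x axis), for the metal genes with a mean of 10 or more normalized reads (points) and as the median of all genes in each GC bin (orange lines). MT2A at -1.53, SLC39A3 at -1.41, SLC39A13 at -1.0 and SLC39A4 at -0.96 lie furthest below 0.

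MTF1 (chromosome 1, 37809567 to 37859620), the sensor that activates metallothionein genes, had 1141, 1114 and 1183 normalized reads in control and 2025, 2163 and 2286 with gefitinib. The groups were far apart and narrow, and the mean rose 1.88-fold (0.91 ± 0.08 on the log2 scale, limma adjusted p = 2.40e-05). Of the metallothionein genes, its textbook targets, 3 had a row and 0 passed limma at an adjusted p of 0.05, against 51.1% of all genes. MT1X and MT1F had at most 9 reads in a group, so the count says little about them. Unadjusted, 0 passed limma as well. With DESeq2 0 of 3 passed, and with edgeR 0 of the 1 gene tested, MT2A. MT2A (chromosome 16, 56608199 to 56609497) had 28.9, 87.0 and 84.0 normalized reads in control and 33.1, 38.9 and 66.1 with gefitinib. Control replicate 1 lay below every gefitinib library and controls 2 and 3 above them; the difference of -0.43 had a 95% interval from -1.44 to 0.58 (limma adjusted p = 0.456), and without control replicate 1 it was -0.94 (adjusted p = 0.0292, the lowest of its alternatives, which reached 0.810). MT1X had 9 reads in all control and 4 in all gefitinib libraries, which is 0.373 times the control after correction for depth (exact 95% interval 0.0838 to 1.34). It was called lower without control replicate 1 (limma adjusted p = 0.0235) or gefitinib replicate 3 (0.0440), and the highest value in any alternative was 0.377. MT1F had 5 and 6 reads. Reads of metallothionein genes can map to several near-identical copies, so these low levels are uncertain.

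The metal response element, the short site through which MTF1 acts, was looked for in RefSeq promoters (GRCh38.p14, 250 bases before to 50 after the start) as TGCACNC and TGCGCNC on both strands, with overlapping matches counted separately. A match was present in 37.3% of 11608 coding genes and in 11 of the 31 metal genes with an entry (35.5%), a share near the background. MT2A had 8 matches, while 0.207% of all promoters held 5 or more. MT1X had 4 and TFRC 3, while 3.17% of all promoters held 3 or more. SLC30A1, SLC40A1 and SLC30A3 had 2 each, while 11.9% of all promoters held 2 or more. SLC30A4 had 1, and MTF1 and SLC39A10 had 0. The 250 bases upstream of the start are printed for MT2A, the site-rich promoter of a gene without a call, and for SLC30A1, another textbook MTF1 target, which fell. Capitals mark the matches, of which 7 of 8 and 1 of 2 lie upstream; RefSeq and GENCODE place both gene starts differently.
MT2A, chr16:56608334-56608583, plus strand: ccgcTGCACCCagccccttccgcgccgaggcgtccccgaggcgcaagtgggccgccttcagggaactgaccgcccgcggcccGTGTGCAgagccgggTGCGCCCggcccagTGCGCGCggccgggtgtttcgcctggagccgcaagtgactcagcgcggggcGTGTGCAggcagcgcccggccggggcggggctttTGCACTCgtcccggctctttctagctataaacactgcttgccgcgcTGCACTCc
SLC30A1, chr1:211579162-211579411, minus strand: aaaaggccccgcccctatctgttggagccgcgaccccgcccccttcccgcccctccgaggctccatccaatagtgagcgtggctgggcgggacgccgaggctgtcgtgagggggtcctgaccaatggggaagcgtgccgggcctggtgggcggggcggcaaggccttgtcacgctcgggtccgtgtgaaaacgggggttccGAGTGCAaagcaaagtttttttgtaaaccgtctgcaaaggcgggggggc

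Of the iron genes, 4 of 7 rose, 2 fell and FTH1 did not pass. Over all genes 28.3% were called higher and 22.8% lower, and 59.7% either way among those with a mean of 10 or more. SLC40A1 encodes ferroportin, the iron exporter (chromosome 2, 189560579 to 189583758). It had 164, 174 and 110 normalized reads in control and 378, 454 and 552 with gefitinib. The lowest gefitinib library exceeded the highest control library more than 2-fold, and the mean rose 3.09-fold (1.63 ± 0.21 on the log2 scale, limma adjusted p = 0.000197). SLC11A2, which encodes the importer DMT1 (chromosome 12, 50979401 to 51028566), moved the other way. Its values were 2167, 1834 and 2028 in control and 930, 1018 and 967 with gefitinib. No values overlapped, and the control mean was 2.07-fold the gefitinib mean (difference -1.05 ± 0.09, limma adjusted p = 2.03e-05).

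TFRC (chromosome 3, 196027183 to 196082189), the receptor that brings in transferrin iron, was the most heavily sequenced of the 35 genes, with 118361 control and 166286 gefitinib reads. The control libraries had 38018, 33337 and 33383 normalized reads and the gefitinib libraries 43415, 40808 and 41394. All gefitinib values were higher, by a small margin over control replicate 1. The difference of 0.26 ± 0.08 passed (limma adjusted p = 0.0264), but the call was lost in 10 of 15 alternatives, among them TMM factors (0.20, adjusted p = 0.138), edgeR (0.20, 0.104) and the GC trend removed (0.14, 0.0584), and its adjusted p ranged from 0.000719 to 0.154. SLC11A2, the importer of the same route, fell.

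Of the ferritin subunit genes, FTL was called and FTH1 was not; whether their differences differ was not tested. FTL, the light chain (chromosome 19, 48965301 to 48966878), had 11804, 15110 and 16314 normalized reads in control and 18101, 18416 and 19940 with gefitinib. Control replicate 1 was the lowest library, and all gefitinib libraries were above all controls. The difference was 0.40 ± 0.12 (limma adjusted p = 0.0192), 0.26 without control replicate 1 (adjusted p = 0.00646), and the call was lost without gefitinib replicate 2 (0.0561) or 3 (0.0729), over a range from 0.000217 to 0.0729. FTH1, the heavy chain that oxidizes iron (chromosome 11, 61959718 to 61967660), had 6121, 5695 and 5121 against 5662, 5841 and 5950. These overlapped, and the 95% interval of the difference ran from -0.14 to 0.23 (limma adjusted p = 0.667). The FTL and FTH1 levels are uncertain, since GENCODE names 16 and 25 pseudogenes after them, and exons of BEST1 on the opposite strand overlap 1267 of the 2030 exon bases of FTH1. The near-identical hairpins of these 2 messengers act on translation, which was not measured.

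The genes of the regulatory proteins themselves moved apart. IREB2, encoding IRP2 (chromosome 15, 78437431 to 78501456), had 3032, 2638 and 2572 normalized reads in control and 4404, 4217 and 4284 with gefitinib. The groups were clearly separated, with a rise of 0.65 ± 0.08 on the log2 scale (limma adjusted p = 0.000182). ACO1, encoding IRP1, which is also the cytosolic aconitase (chromosome 9, 32384603 to 32454769), had 851, 914 and 1002 against 731, 742 and 648. All gefitinib libraries were lower, with a difference of -0.38 ± 0.10 (limma adjusted p = 0.0130), a call that was lost without gefitinib replicate 3 (adjusted p = 0.0570, over a range from 0.00146 to 0.0570).

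**Figure D4:**
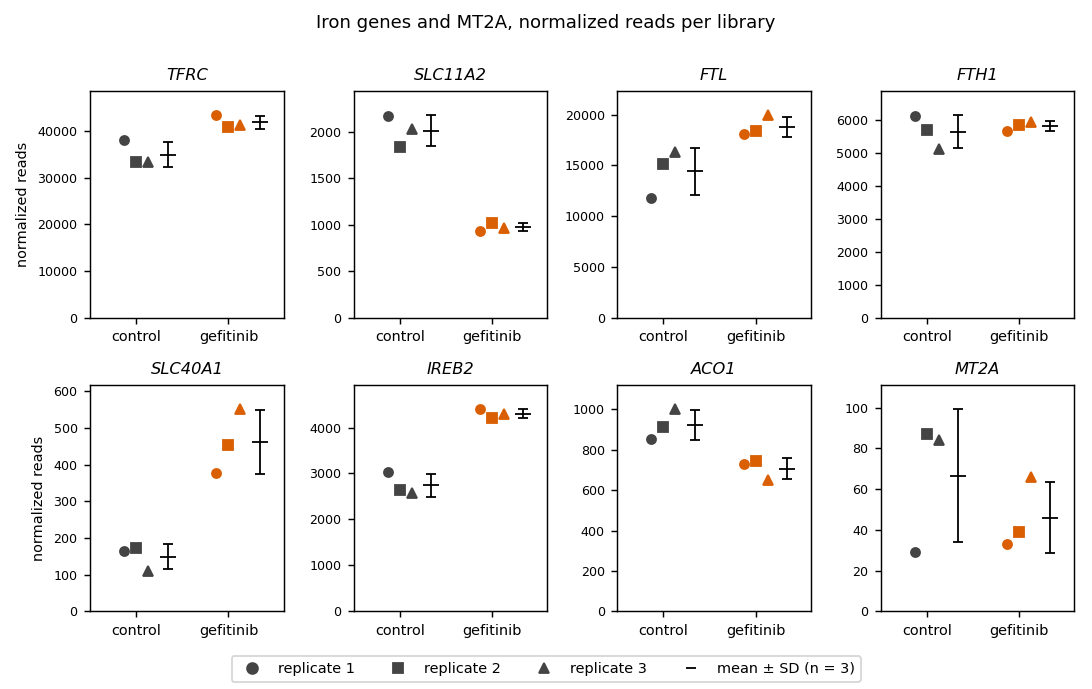
Normalized reads per library (y axis, from 0) of the 7 iron genes and of MT2A in 3 control and 3 gefitinib libraries; symbols mark the replicate number and the bar the mean ± SD. SLC40A1 goes from 110 to 174 up to 378 to 552 and SLC11A2 from 1834 to 2167 down to 930 to 1018, while FTH1 and MT2A overlap.

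Of the magnesium transporters, SLC41A1, the sodium-coupled exporter of the plasma membrane, rose and SLC41A3, which releases magnesium from mitochondria, fell. SLC41A1 (chromosome 1, 205789093 to 205813748) had 1765, 1709 and 1774 normalized reads in control and 2734, 2584 and 2735 with gefitinib. The values were tight within each group and the difference was 0.62 ± 0.07 (limma adjusted p = 0.000113). SLC41A3 read 1783, 1921 and 1995 and then 1461, 1120 and 1017. Its groups did not overlap, at a difference of -0.68 ± 0.13 (limma adjusted p = 0.00207). SLC41A2 had means of 353 ± 35.7 and 327 ± 82.3 (SD, n = 3), overlapping, with a 95% interval from -0.57 to 0.29.

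Levels can be set side by side between genes only per length, here as normalized reads per kilobase of merged exons. On that scale the control level of FTL was 16412 ± 2660 (SD, n = 3), followed by TFRC at 4427 ± 341, FTH1 at 2781 ± 247, SLC39A7 at 2406 ± 126 and SLC39A1 at 1317 ± 71.5. FTH1 and SLC39A7 differed by about the sum of their SDs. The plasma membrane genes SLC30A1 and SLC39A10 had control levels that differed by less than their spread, 552 ± 71.0 and 540 ± 71.9, and stood at 341 ± 18.3 and 208 ± 33.3 with gefitinib. Among the lower levels, MT2A had 51.3 ± 25.2 and SLC40A1 34.5 ± 7.97 per kilobase in control, and SLC30A4 had 0.725 ± 0.152 in control and 8.01 ± 0.856 with gefitinib. SLC39A3, at 16.8 ± 9.06 in control, lay between SLC40A1 and SLC30A4, and SLC39A5, SLC30A3 and SLC39A12 lay below SLC30A4.

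**Figure D5:**
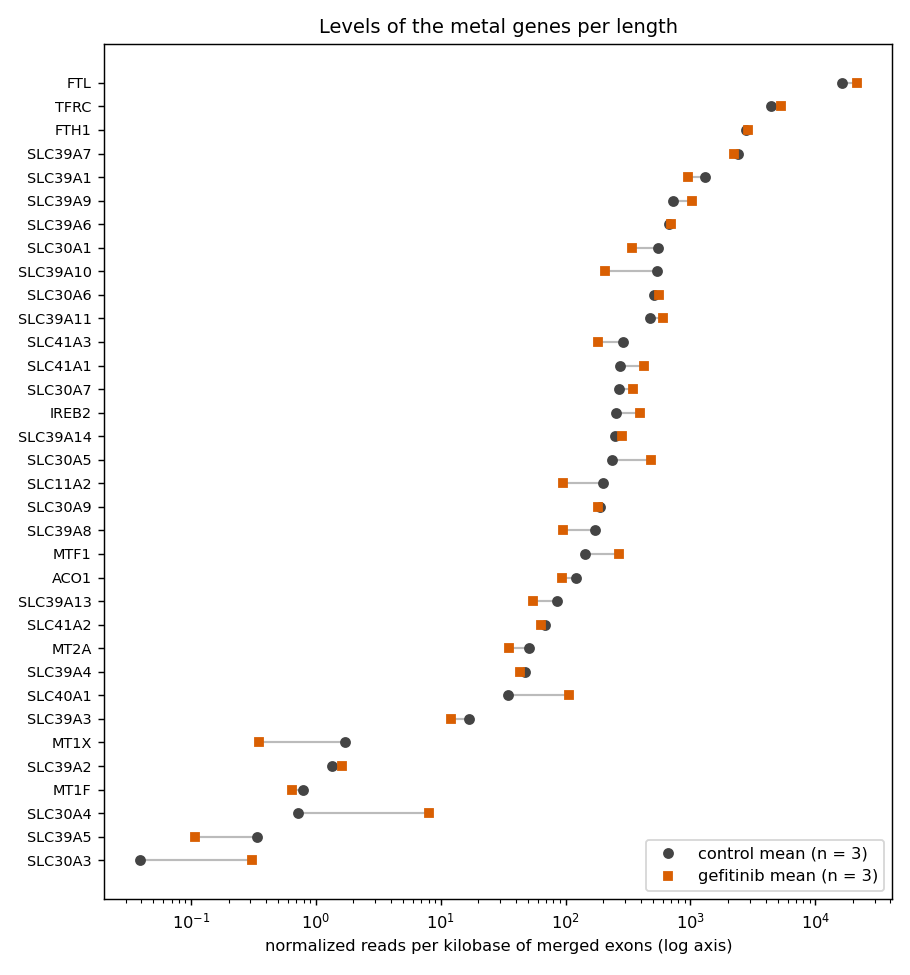
Mean normalized reads per kilobase of merged exons (x axis, log axis) of the metal genes with control reads, in control (circles) and gefitinib (squares) libraries, ordered by the control mean; lines join the 2 means of a gene. FTL is highest, at 16412 in control, and the largest step on this axis among called genes is that of SLC30A4, from 0.725 to 8.01.

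Other metal genes, from lists of textbook members, are given by their counts, beside the 28.3% higher and 22.8% lower over all genes. Of 37 further iron genes with a row, 12 rose, 11 fell and 14 did not pass, with a median of -0.10. The heme-degrading enzyme gene HMOX1, which frees iron, had 1112, 1441 and 1441 normalized reads in control and 415, 323 and 243 with gefitinib (difference -2.05 ± 0.19, limma adjusted p = 2.94e-05). SLC25A37, the iron importer of mitochondria called mitoferrin, fell from a mean of 2411 ± 179 to 954 ± 55.4 (SD, n = 3). The metal reductase gene STEAP4 fell from 797 ± 89.2 to 409 ± 37.4. In each of these 3 genes the groups did not overlap.

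Of 5 further zinc genes, TMC6 and ZNF658 rose, the zinc receptor gene GPR39 fell and 2 did not pass. GPR39 had 851, 972 and 1091 normalized reads in control and 374, 386 and 336 with gefitinib, a difference of -1.40 ± 0.12 (limma adjusted p = 1.99e-05). ZNF658, a zinc-responsive transcription factor gene, went from 3.26 ± 0.325 to 15.3 ± 0.728, a low level. TMC6, whose product binds ZnT1, differed by 0.71 ± 0.20 (limma adjusted p = 0.0157), a call lost without gefitinib replicate 2 or 3 (adjusted p = 0.0572 and 0.0555, over a range from 0.000388 to 0.0572). Among 11 copper genes, 4 rose, 1 fell and 6 did not pass, with a median of 0.17. The copper importer gene SLC31A1 rose from 1835 ± 136 to 2432 ± 157, SLC31A2 rose by 0.54 ± 0.13 on the log2 scale and COMMD1, a copper regulator, from 76.8 ± 3.94 to 187 ± 36.2, while the exporter gene ATP7B fell from 197 ± 26.3 to 103 ± 14.8.

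Of 13 further magnesium genes, 5 rose, 1 fell and 7 did not pass, with a median of 0.22. CNNM4, a magnesium extruder of the plasma membrane, had 1493, 1743 and 1780 normalized reads in control and 7811, 8416 and 8860 with gefitinib. The gefitinib libraries were all more than 4-fold above the highest control, a log2 difference of 2.32 ± 0.09 (limma adjusted p = 6.23e-07). Its relative CNNM3 rose from 522 ± 68.1 to 862 ± 4.58, the magnesium transporter gene MAGT1 from 3243 ± 217 to 5130 ± 118 and NIPA1 from 558 ± 7.90 to 897 ± 58.1 (SD, n = 3). The extruder genes SLC41A1 and CNNM4 were thus both higher with gefitinib, but so were CNNM3, MAGT1 and NIPA1. SLC41A3, which releases magnesium from mitochondria, was lower. Whether extruder genes differ from the others was not tested.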

How the data were processed

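Values of the deposited coding-gene table are a signal, since the authors had divided each library's counts so that all libraries sum to 18085800, as the values themselves show. Every value above 0 was a whole multiple of 1 step per library (100% within 0.01 read), which gave back the reads. STAR, HTSeq and GRCh38 are named in the submitters' processing notes, without versions; strand setting and annotation are not given in the sources used here. A second deposited table has 6 columns of per-sample counts whose names match no label; they are not used, and only its gene IDs and positions were read.

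Groups come from the sample titles. The 15229 genes above 0 in any library entered a limma-trend fit (limma 3.58.1 in R 4.3.3) of log2(value + 1). Its p-values are 2-sided, were adjusted by Benjamini and Hochberg's method over the whole table and called at 0.05. The fit was also run on simulated counts with far fewer changed genes than here and no GC trend between libraries. That run therefore does not show how the fit performs on these data. Alternatives were pseudocounts of 0.5 and 5, a mean of 10 or more, TMM and DESeq2 size factors, edgeR 4.0.16 and DESeq2 1.42.0 on the recovered reads, a replicate block and leaving out each library; removal of a GC trend per library (loess, span 0.3) was added after seeing the data. Of 12167 genes that edgeR tested on these reads, 3707 rose and 3752 fell. Every pair of replicates differed by more than sampling noise. Counting intervals are exact 95% intervals and cover counting error only.

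All members are named, plus up to 4 called genes with the smallest p from each list of other zinc, iron, copper and magnesium genes; 1 of the iron genes so chosen is not reported here. Members and lists were chosen with earlier results of these data known. Gene positions and exon lengths are from GENCODE release 29, promoters from RefSeq. Symbols of the rule with no row in the table, 10 in number, are not analysed here.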

Additional observations from a re-analysis of the deposited data

How the results depend on the processing

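Of the 18 metal genes called, 15 kept their call in each of the 15 alternatives, and TFRC, FTL and ACO1 lost it in at least 1; no called difference changed sign in any of them. The number of members called higher was 11 and ranged from 9 to 12 when each library was left out. Over all genes it was 4312 and ranged from 3467 to 4582. The number of members called lower was 7 and ranged from 7 to 11, with 11 reached without control replicate 1. Over all genes it was 3473 and ranged from 2861 to 4001, also highest without control replicate 1. Without gefitinib replicate 1 the counts of members were 11 and 7 (4121 and 3300 over all genes), with TFRC lost and SLC30A3 gained. Without control replicate 1, SLC39A13, SLC39A4, MT2A and MT1X were called lower (MT1X at -1.86) and SLC30A6 higher. The cause was not tested. With the GC trend removed 10 were higher and 9 lower, SLC30A9 being called at -0.19 (adjusted p = 0.0236). With edgeR 10 were higher and 8 lower of 29 tested. Without gefitinib replicate 3, MT1X passed at -1.83. Whether replicate numbers pair the libraries is not settled by these values. Deviations of same-numbered libraries correlated at 0.127, 0.044 and 0.095, and those of differently numbered libraries at -0.128 to 0.086. For each gefitinib library the highest correlation was with the same-numbered control. With the replicate block the counts of members were 11 and 8 (4438 and 3552 over all genes), the added call being SLC39A13. Under TMM factors the median of all genes moved from 0.10 to 0.05. Depth limits SLC30A3, SLC39A2, SLC39A5, SLC39A12, MT1X and MT1F, each with at most 9 reads in a group.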
